A study of Vitis vinifera with 6 samples.

Results

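The NAC genes that grapevine work ties to leaf senescence and berry ripening were followed, 7 of the 34369 genes and loci that the array measures with a single probe each. The rule that picks them is a list of identifiers, drawn up with earlier results of these data known: *VviNAC33* (VIT_19s0027g00230), *VviNAC60* (VIT_08s0007g07670), *VviNAC26* (VIT_01s0026g02710), *VviNAC11* (VIT_14s0108g01070), *VviNAC13* (VIT_02s0012g01040), *VviNAC37* (VIT_10s0003g00350) and *VviNAC03* (VIT_00s0375g00040). RNA came from young leaves of *Vitis vinifera* cv Shiraz, on 3 control arrays and 3 arrays of plants that stably overexpress *VviNAC33* (OXNAC33). By the labels the leaves were taken when the phenotype set in, whereas the text of the study places these arrays ahead of it. The transgene was driven by the constitutive CaMV 35S promoter, in a vector with a green fluorescent protein cassette. The construct carried the coding sequence with its 3' untranslated region, cloned from cv Corvina. By the methods, independent transgenic lines were the OXNAC33 replicates and the lines had been selected for high *VviNAC33* expression, leaves were pooled for RNA, and the controls of the study were vector controls. The labels give the control arrays only as control plants of the same cultivar, and which plant gave each of them was not stated, so that the p-values below measure the spread between these arrays.

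NAC proteins are a plant-specific family of transcription factors, named after the founding genes *NAM*, *ATAF* and *CUC*. They bind DNA through a conserved domain near the start of the protein, and the rest of the protein differs widely between members. In Arabidopsis, *ORE1* (*ANAC092*) and *NAP* promote leaf senescence, and in tomato *NOR* is needed for fruit ripening. Organ ageing and ripening both involve loss of chlorophyll and export or storage of nutrients, and some NAC genes act in both.

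Levels are given on the log2 scale with the 75th percentile of the same array at 0, so that a positive level is brighter than most probes. The scale holds within a probe and not between probes. The share of probes well above background was 69.4% to 74.9% per array, with 0 probes saturated. Control arrays correlated with each other at r = 0.965 to 0.976 over all probes tested, OXNAC33 arrays at 0.946 to 0.956 and pairs across the groups at 0.897 to 0.947. The arrays were scanned in 2 sessions, the first holding control 1, OXNAC33 1 and OXNAC33 2 and the second holding control 2, control 3 and OXNAC33 3, and differences inside each session are given beside the pooled ones. Probes of 6 chlorophyll-binding and photosystem genes, read to check that the tissue was green leaf, were well above background on all 6 arrays. None of the 6 passed the threshold, and their differences ran from -1.79 to 0.45 log2. The probe of *CESA8*, read as a marker of woody tissue, was also well above background on all 6 arrays. Its difference was -0.30 (SE 0.34, limma adjusted p = 0.603).

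Of the 7 genes, *VviNAC26* and *VviNAC11* rose in OXNAC33 leaves past the threshold of the test (limma, Benjamini-Hochberg adjusted p under 0.05 over 23907 probes), and none fell. Over all probes tested, 5.02% passed that threshold, 1.69% higher and 3.33% lower in OXNAC33. *VviNAC33* itself and *VviNAC60* were higher on every OXNAC33 array than on any control array without passing it. Groups that did not overlap were found for 35.5% of all probes tested, 15.1% higher and 20.4% lower in OXNAC33. *VviNAC13* and *VviNAC37* had overlapping groups, and *VviNAC03* was too dim to test. The lines had been picked for high *VviNAC33*, *VviNAC60* entered the test through its OXNAC33 arrays alone and *VviNAC37* through its control arrays alone, so that no count or median over the set is read against all probes.

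*VviNAC33*, the overexpressed gene and a close grapevine homolog of Arabidopsis *ORE1*, was measured at -5.22, -4.14 and -4.01 on control arrays 1, 2 and 3, and at -0.54, -3.89 and -1.00 on OXNAC33 arrays 1, 2 and 3. The OXNAC33 arrays all lay above the controls, but OXNAC33 2 lay only just above the highest control, while OXNAC33 1 and OXNAC33 3 stood well apart. Relative to the control mean, the level was higher by 3.92, 0.57 and 3.46 on the 3 OXNAC33 arrays. As deposited, the processed intensities of the probe were 24.4, 46.5 and 64.3 in control and 532, 66.3 and 653 in OXNAC33. The probe was well above background on all 6 arrays.

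The group difference for *VviNAC33* was 2.65 on the log2 scale (SE 0.88, 95% interval 0.53 to 4.77, n = 3 per group), with an adjusted p of 0.116 in limma. Inside the sessions it was 3.01 and 3.08. Without OXNAC33 2 the difference was 3.69 and passed the threshold (limma, adjusted p = 0.0198). Scaling the arrays on their spike-in spots also took it past the threshold, at 2.84 (limma, adjusted p = 0.0458). With normexp, a model-based background correction that here starts from the raw median signals in place of the processed ones, it was 1.20 (limma, adjusted p = 0.330). Where on the transcript the probe lies was not stated, and transcripts of the transgene and of the plant's own gene cannot be told apart on this array. The labels do not tie the replicate numbers to the named lines of the study. The array labelled OXNAC33 2 is called by its label throughout. It is not taken to be the study's line OX2, which the study reports as the line with the highest *VviNAC33* expression.

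**Figure D1:**
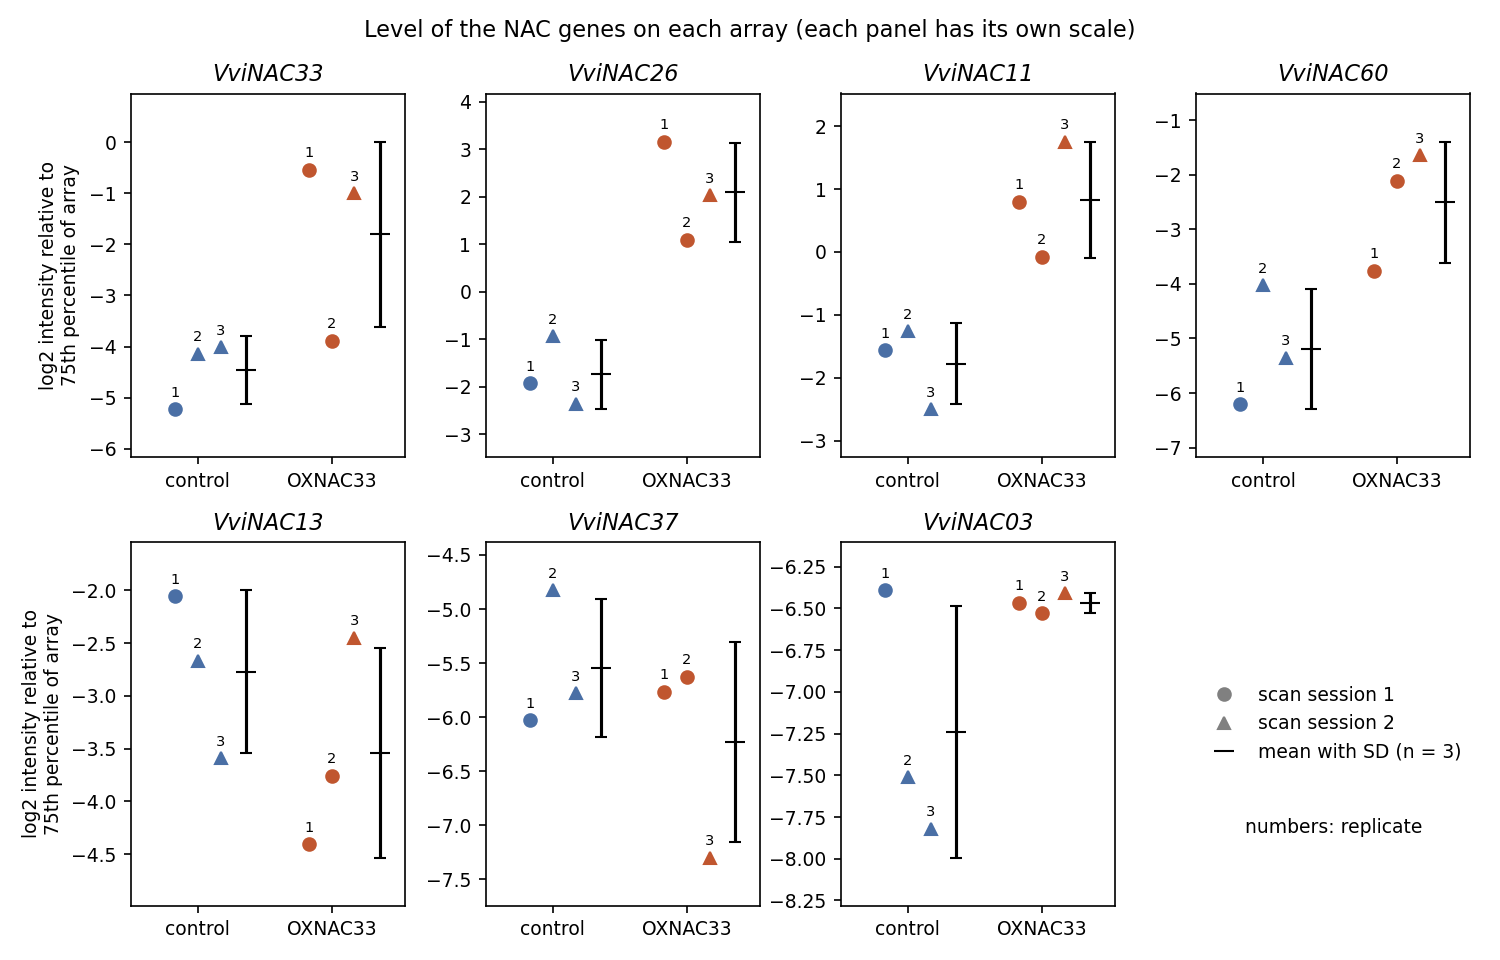
Level of each of the 7 NAC genes on each array, in log2 units with the 75th percentile of its array at 0 (vertical axis, a separate scale in each panel), for the 3 control and 3 OXNAC33 arrays. Numbers are replicates, circles and triangles are the scan sessions, and black bars are the mean with its SD. *VviNAC33* on OXNAC33 2 (-3.89) lies beside the controls, whereas *VviNAC26* on that array (1.09) lies far above them.

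*VviNAC26*, whose sequence variants have been associated with berry size in grapevine, had the largest difference of the 7 genes. It was measured at -1.93, -0.94 and -2.36 in control and at 3.16, 1.09 and 2.03 in OXNAC33. The groups were far apart, with the lowest OXNAC33 array above the 75th percentile of its array and every control below it. Processed intensities went from 239, 428 and 202 in control to 6901, 2087 and 5304 in OXNAC33.

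The mean of *VviNAC26* was -1.74 ± 0.73 in control and 2.09 ± 1.04 in OXNAC33 (SD, n = 3 each). This was a rise of 3.83 log2, or 14.2-fold (SE 0.59, 95% interval 2.41 to 5.25, limma adjusted p = 0.0361). The difference was of like size inside the sessions, 4.05 and 3.67. With the session as a block it was 3.86 with an adjusted p of 0.0551 in limma, just short of the threshold. Under that block 0 of all probes passed, and the smallest adjusted p was 0.0546 (limma). Without OXNAC33 2 the *VviNAC26* difference was 4.33 (limma, adjusted p = 0.0205). Leaving out any other array ended the call, with the difference at 3.30 to 4.23 in those fits. Over all probes, those fits called at most 7 higher and 2 lower.

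*VviNAC11* was measured at -1.56, -1.26 and -2.50 in control and at 0.80, -0.08 and 1.75 in OXNAC33. Here too the groups did not overlap, and OXNAC33 2 was the lowest of the OXNAC33 arrays. The rise was 2.60 log2, or 6.06-fold (SE 0.53, 95% interval 1.33 to 3.87, limma adjusted p = 0.0476). Inside the sessions the difference was 1.92 and 3.63, and with the session as a block it was 2.78 (limma, adjusted p = 0.0596). Without OXNAC33 2 it was 3.05 (limma, adjusted p = 0.0275). The call was lost when any other single array was left out, as were nearly all calls on the array.

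*VviNAC60*, a regulator of berry ripening and of the passage of organs to maturity, was dim in control leaves. It was measured at -6.20, -4.02 and -5.35 in control, where 2 of 3 arrays were well above background, and at -3.76, -2.11 and -1.65 in OXNAC33, where all 3 were. OXNAC33 1 lay just above control 2, and OXNAC33 2 and OXNAC33 3 lay well above all controls. The difference was 2.69 (SE 0.72, 95% interval 0.96 to 4.42), with an adjusted p of 0.0757 in limma, and inside the sessions it was 3.27 and 3.04.

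Across the alternatives that keep all arrays, the *VviNAC60* difference ran from 0.88, with normexp on median signals, to 3.16, with the session as a block. Without OXNAC33 2 it was 2.49 (limma, adjusted p = 0.129). With spike-in scaling it was 2.88 and passed the threshold (limma, adjusted p = 0.0342). None of the alternatives run turned its direction. *VviNAC61*, the gene whose identifier is nearest to that of *VviNAC60*, was measured at -3.90, -2.43 and -3.38 in control and at -2.61, -2.96 and -2.83 in OXNAC33. Its groups overlapped, its difference was 0.44 (SE 0.38, limma adjusted p = 0.505), and it turned to -0.16 under normexp.

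**Figure D2:**
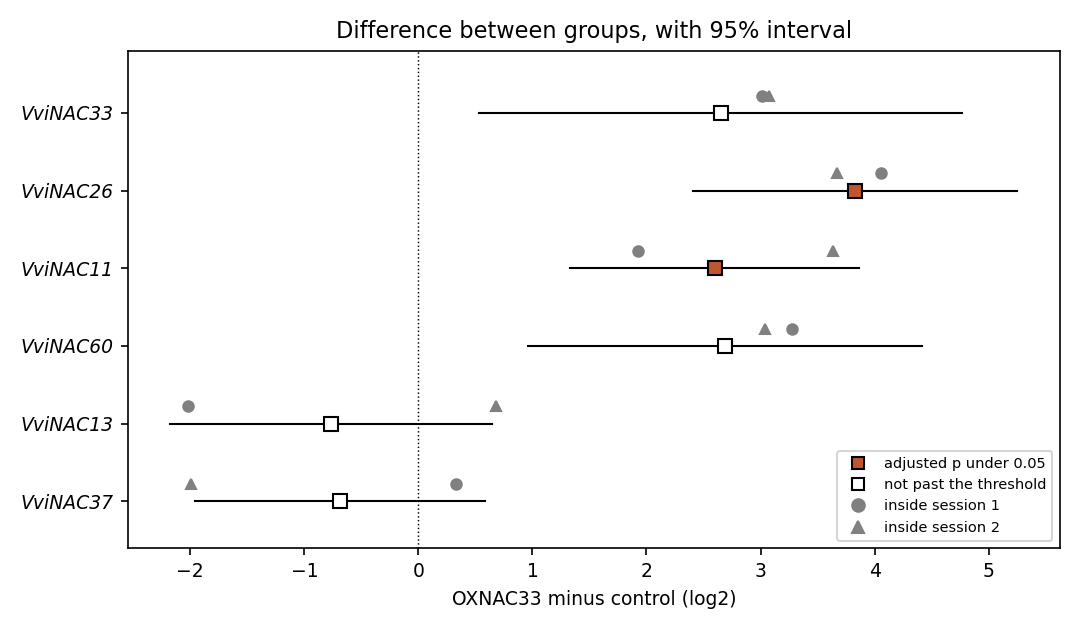
OXNAC33 minus control on the log2 scale (horizontal axis) for the 6 NAC genes tested, with the 95% interval of the fit as a line. Filled squares passed an adjusted p of 0.05, open squares did not, and grey symbols are the differences inside each scan session. For *VviNAC13* and *VviNAC37* the sessions lie on opposite sides of 0.

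*VviNAC13* was measured at -2.06, -2.67 and -3.59 in control and at -4.40, -3.75 and -2.45 in OXNAC33. OXNAC33 1 and OXNAC33 2 lay below all controls, and OXNAC33 3 lay among them. The difference of -0.77 (SE 0.59, 95% interval -2.18 to 0.65) did not pass (limma, adjusted p = 0.448). It was -2.02 inside session 1 and 0.68 inside session 2, and -0.67 with the session as a block (limma, adjusted p = 0.542).

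*VviNAC37* was measured at -6.03, -4.83 and -5.78 in control and at -5.77, -5.62 and -7.30 in OXNAC33. The groups overlapped, with OXNAC33 3 lowest and not well above background. The difference was -0.68 (SE 0.53, 95% interval -1.96 to 0.59, limma adjusted p = 0.452). It was 0.33 inside session 1 and -1.995 inside session 2, the reverse of the order in *VviNAC13*, and -0.83 with the session as a block (limma, adjusted p = 0.389).

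*VviNAC03* was well above background on 0 control arrays and 1 OXNAC33 array, and it was left out of the test. It was measured at -6.39, -7.51 and -7.82 in control and at -6.47, -6.53 and -6.41 in OXNAC33. The highest control lay above every OXNAC33 array. No fold is given for it, because both groups were at or near background.

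The differences did not rank the OXNAC33 arrays in a single order. Relative to its control mean, *VviNAC26* was higher by 4.90, 2.83 and 3.77 on OXNAC33 1, 2 and 3, the same order of arrays as for *VviNAC33*. *VviNAC11* was higher by 2.57, 1.70 and 3.53, with OXNAC33 3 first and OXNAC33 2 last. *VviNAC60* was higher by 1.44, 3.09 and 3.55, so that OXNAC33 1, the array with the most *VviNAC33* signal, had the smallest difference. On OXNAC33 2, where *VviNAC33* was 0.57 above its control mean, *VviNAC26*, *VviNAC11* and *VviNAC60* were each above all of their controls.

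Across the 6 arrays the level of *VviNAC26* followed that of *VviNAC11* with a Pearson r of 0.928 and that of *VviNAC33* with 0.879. For *VviNAC60* and *VviNAC33* r was 0.596. These values are descriptions over 6 points that share their group, their session and their scaling. After each group's mean was taken away, r was 0.576 for *VviNAC26* with *VviNAC11*, 0.716 for *VviNAC26* with *VviNAC33* and -0.107 for *VviNAC60* with *VviNAC33*. Over the 5 arrays other than OXNAC33 2, the levels of the same pairs had r of 0.929, 0.955 and 0.803.

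**Figure D3:**
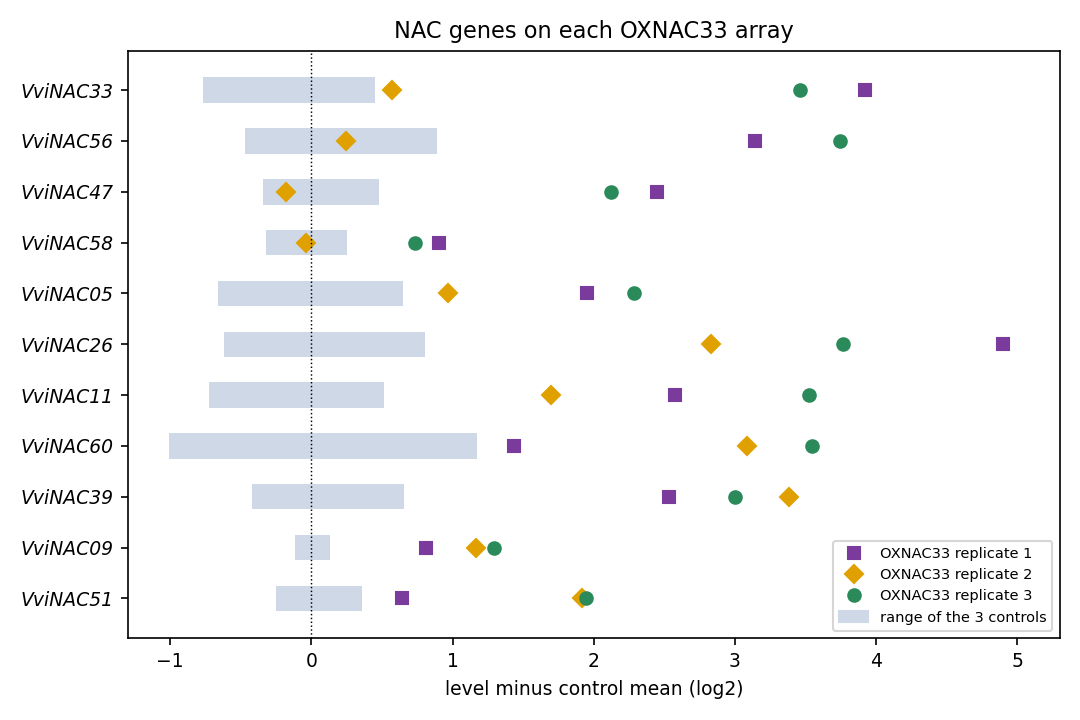
Level on each OXNAC33 array minus the control mean of the same gene, on the log2 scale (horizontal axis). Genes are *VviNAC33*, *VviNAC26*, *VviNAC11*, *VviNAC60*, the clade mate *VviNAC56* and family genes picked for their r with *VviNAC33* or *VviNAC60* over these arrays. Shaded bars span the 3 controls. In *VviNAC33*, *VviNAC56*, *VviNAC47* and *VviNAC58* the OXNAC33 2 point lies in or beside the control range, and in *VviNAC60*, *VviNAC39*, *VviNAC09* and *VviNAC51* it lies above it.

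The study counts 74 grapevine NAC genes, and all 74 had a probe. Beside the 7, this leaves 67, of which 43 were tested, 38 were well above background on all 6 arrays and 13 on none. Of the 43, 3 entered through the OXNAC33 arrays alone and 2 through the control arrays alone. In this rest of the family 3 genes rose and 0 fell past the threshold (limma). Over all probes tested, 1.69% passed it as higher and 3.33% as lower. By an unadjusted p under 0.05, 14 of the 43 were higher and 4 were lower, where 27.3% of all probes passed, 11.7% higher and 15.6% lower. The groups did not overlap for 15 of the 43 higher and 4 lower in OXNAC33, beside the shares of all probes given above. Differences ran from -1.45 to 3.44 with a median of 0.46, beside -0.01 over all probes tested, and 29 were above 0 and 14 below.

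*VviNAC39* was measured at -0.49, 0.41 and -0.67 in control and at 2.28, 3.13 and 2.75 in OXNAC33, a rise of 2.97 (SE 0.36, limma adjusted p = 0.0361). *VviNAC08* went from 0.16, 0.41 and 0.36 to 2.50, 2.76 and 1.81, a rise of 2.05 (SE 0.28, limma adjusted p = 0.0361). *VviNAC09* went from 0.04, 0.15 and 0.29 to 0.97, 1.32 and 1.45, a rise of 1.09 (SE 0.21, limma adjusted p = 0.0449). In these 3 genes OXNAC33 2 was never the lowest OXNAC33 array, unlike in *VviNAC33*, *VviNAC26* and *VviNAC11*. With the session as a block all 3 fell short of the threshold, at adjusted p of 0.0546, 0.0546 and 0.0551 in limma. In that fit 0 of all probes passed, and 0.0546 was the smallest adjusted p (limma). Leaving out any single array other than OXNAC33 2 left 0 NAC genes past the threshold. Over all probes those fits called at most 7 higher and 2 lower, so that nearly every call on the array was lost. Without OXNAC33 2, 1000 of 23814 probes tested passed as higher and 1554 as lower. In that fit *VviNAC33*, *VviNAC26* and *VviNAC11* passed as higher, together with *VviNAC08*, *VviNAC39*, *VviNAC56*, *VviNAC47* and *VviNAC05*. *VviNAC57* passed as lower, and *VviNAC09* did not pass (limma, adjusted p = 0.0506).

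The largest difference among the other genes was that of *VviNAC17*, studied in grapevine for its part in stress tolerance. It was measured at -5.04, -2.35 and -5.52 in control and at -0.60, -0.61 and -1.39 in OXNAC33, a difference of 3.44 (SE 0.81) with an adjusted p of 0.0593 in limma, and 1.65 with normexp on median signals (adjusted p = 0.110, limma). The controls were far apart, control 2 being closest to the OXNAC33 arrays. *VviNAC18*, which has the next identifier to *VviNAC17*, was well above background on 0 control and 2 OXNAC33 arrays. It was measured at -7.89, -6.86 and -8.86 in control and at -4.33, -7.07 and -5.95 in OXNAC33, so that OXNAC33 2 lay below control 2 and the groups overlapped. Its OXNAC33 mean, which includes an array not well above background, was 1.60-fold above the control floor.

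*VviNAC30* and *VviNAC74* differed by 2.03 (limma, adjusted p = 0.0955) and 1.81 (limma, adjusted p = 0.0800), with no overlap between their groups, and by 0.99 and 1.18 with normexp on median signals. The lowest differences among family genes detected on every array whose groups did not overlap were those of *VviNAC57* at -1.45 (limma, adjusted p = 0.0590), *VviNAC59* at -0.87 (limma, adjusted p = 0.0699) and *VviNAC04* at -0.70 (limma, adjusted p = 0.110). None of these 5 passed the threshold.

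Several NAC genes have neighbouring identifiers. In the run of 6 from *VviNAC50* to *VviNAC55*, 4 were tested, all 4 differences were above 0 (0.33 to 1.76) and in 3 the groups did not overlap, with 0 past the threshold. Over all probes tested, 49.2% of differences were above 0, and 15.1% of probes had groups that did not overlap and were higher in OXNAC33. In the run of 5 from *VviNAC28* to *VviNAC32*, only *VviNAC30* was well above background on any array. The pair *VviNAC20* and *VviNAC21* differed by -0.02 and -0.20. Probe sequences were not used here, so that hybridization of a transcript to the probe of a like gene was not tested.

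In the tree of the family the study places *VviNAC14* and *VviNAC56* in the clade of *VviNAC33*. *VviNAC14* was well above background on 0 arrays. *VviNAC56* was well above background on 2 of 3 control arrays and on all 3 OXNAC33 arrays, and it entered the test through the latter alone. It was measured at -5.94, -4.64 and -6.00 in control and at -2.39, -5.28 and -1.78 in OXNAC33. On OXNAC33 2 it lay among the controls, and on OXNAC33 1 and OXNAC33 3 it lay far above them, the pattern seen in *VviNAC33*. Its difference was 2.38 (SE 0.92, limma adjusted p = 0.160), and 3.44 without OXNAC33 2 (limma, adjusted p = 0.0237). With normexp on median signals it was 0.57 (limma, adjusted p = 0.586). Its r with *VviNAC33* over the 6 arrays was 0.944, it was 0.882 after the group means were taken away, and over the 5 arrays other than OXNAC33 2 it was 0.943.

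Among the family genes well above background on all arrays, those most like *VviNAC33* across the 6 arrays were *VviNAC58* (r = 0.964), *VviNAC47* (r = 0.945) and *VviNAC05* (r = 0.939). They were picked by r over these same arrays, so that a like position of OXNAC33 2 is part of the choice. *VviNAC47* was measured at -3.17, -2.56 and -3.38 in control and at -0.59, -3.22 and -0.92 in OXNAC33, where OXNAC33 2 lay among the controls. *VviNAC47* differed by 1.46, *VviNAC58* by 0.53 and *VviNAC05* by 1.73, and none of the 3 passed the threshold. Without OXNAC33 2 these differences were 2.28, 0.82 and 2.12, and with normexp on median signals 0.68, 0.26 and 0.70. Over the 5 arrays other than OXNAC33 2, r with *VviNAC33* was 0.970 for *VviNAC58*, 0.956 for *VviNAC47* and 0.967 for *VviNAC05*. Most like *VviNAC60*, and picked in the same way, were *VviNAC39* (r = 0.921), *VviNAC09* (r = 0.912) and *VviNAC51* (r = 0.901). *VviNAC51* was measured at -5.13, -4.99 and -4.52 in control and at -4.24, -2.96 and -2.94 in OXNAC33, and its mean was 2.83-fold higher (limma, adjusted p = 0.0748). With normexp on median signals its difference was 0.12 on the log2 scale (limma, adjusted p = 0.861).

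Of the 6 chlorophyll-binding and photosystem genes read above, *CAB1* was picked after its values were seen. *CAB1*, a chlorophyll-binding protein of the light-harvesting antenna, was measured at 7.64, 6.43 and 7.17 in control and at 4.63, 6.78 and 4.46 in OXNAC33. OXNAC33 2 lay inside the control range and the other OXNAC33 arrays lay below it. Its difference was -1.79 (SE 0.66, limma adjusted p = 0.144). Without OXNAC33 2 it was -2.53 and passed the threshold (limma, adjusted p = 0.0258). In *LHCB3* copy 1 (3.97) and copy 2 (4.14) OXNAC33 2 lay above the measured controls, and the other OXNAC33 arrays lay below them. In *PSBP* it lay inside the control range (1.48), and the other OXNAC33 arrays lay above that range. In *LHCA1* and *PSAO* it did not stand apart, since OXNAC33 1 (6.23 and 5.74) and OXNAC33 2 (6.13 and 6.05) both lay inside the control range.

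**Figure D4:**
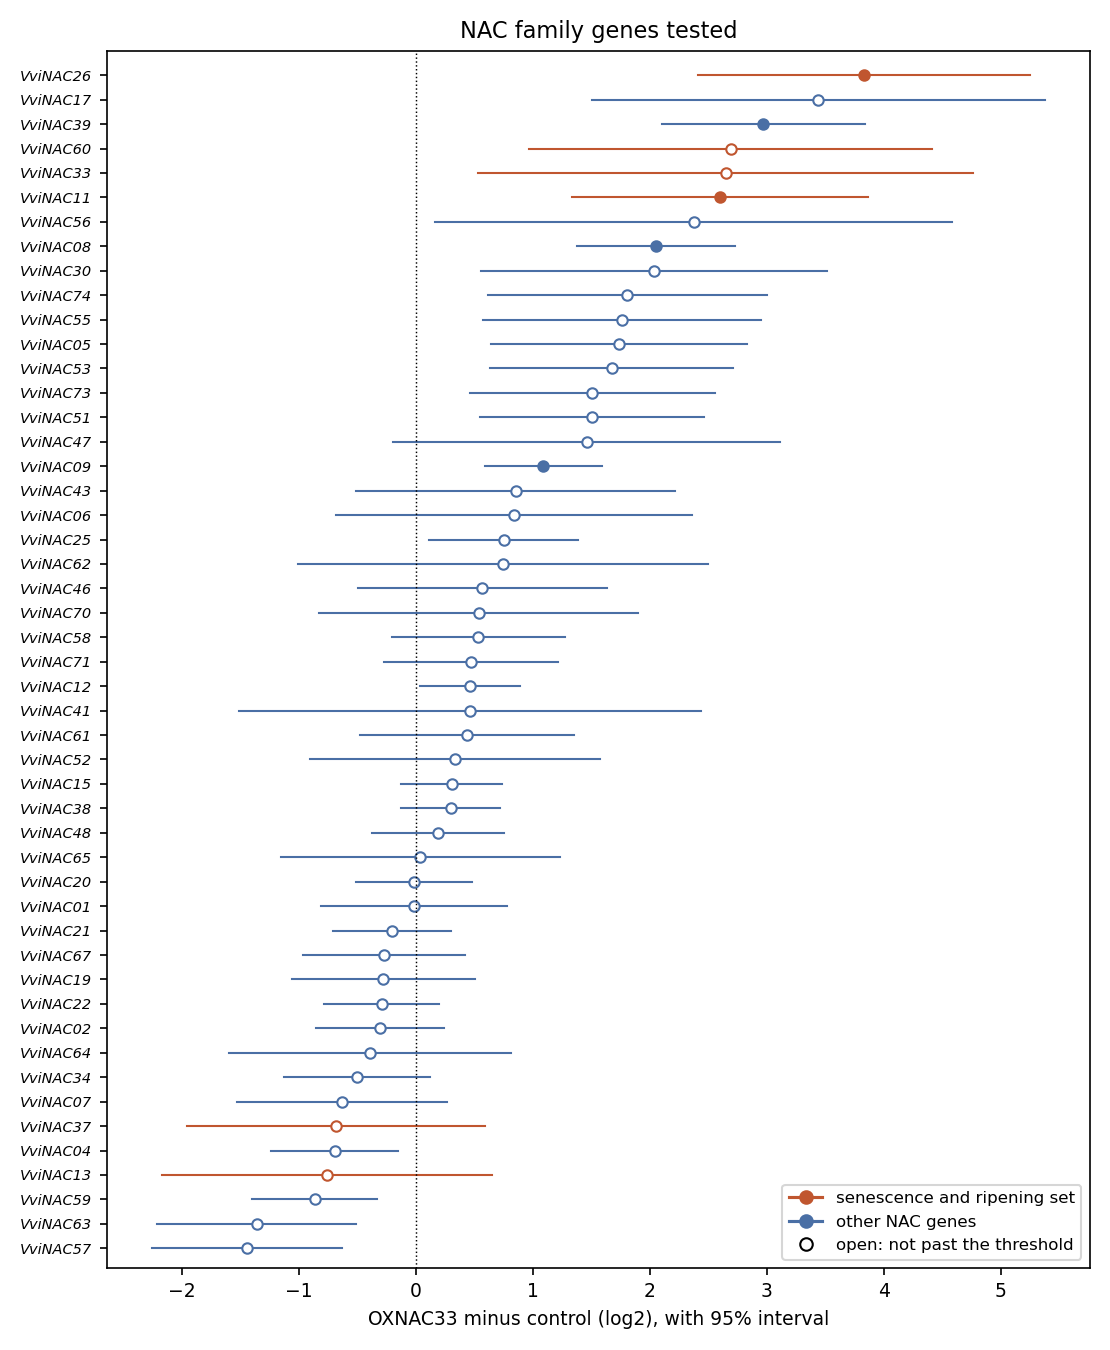
OXNAC33 minus control on the log2 scale (horizontal axis) for the 49 NAC genes tested, ordered by size, with the 95% interval of the fit. The 7-gene set is drawn in orange and the other genes in blue, and filled points passed an adjusted p of 0.05. The differences run from -1.45 for *VviNAC57* to 3.83 for *VviNAC26*.

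The genes that the study puts around *VviNAC33* were read on the same arrays. The study's own evidence for these links includes promoter luciferase assays. For *SGR1* and *ATG8f* it also includes DNA binding, co-expression across organs, and qPCR in a single OXNAC33 line and a single line with a repressor form. The study further reports *SGR1* as raised by transient overexpression, and lists *ATG8f* among putative targets raised in the stable lines. Group differences on these arrays are another measure than the luciferase, binding and qPCR values. The regulators *VvibHLH75* and *VviWRKY19* differed by -0.16 (SE 0.35) and 0.15 (SE 0.38), and their groups overlapped. *SGR1*, which encodes the protein that removes magnesium from chlorophyll, differed by 0.30 (SE 0.23, limma adjusted p = 0.446). *ATG8f*, which encodes a protein of the autophagosome membrane, was measured at 1.72, 1.40 and 1.70 in control and at 2.60, 2.35 and 2.76 in OXNAC33. Its groups did not overlap and its difference was 0.96 (SE 0.21), just short of the threshold (limma, adjusted p = 0.0512). All 3 OXNAC33 arrays lay above the controls for *ATG8f*, OXNAC33 2 included.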

How the data were processed

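The authors labelled leaf RNA with Cy3, hybridized it to single-colour Agilent custom grapevine arrays and extracted the scans with Agilent Feature Extraction, version 10.5.1.1. Intensity values in the deposited scanner files are background-corrected and detrended within the array, with no scaling between arrays. A second deposited table gives processed intensity values for 23080 probes, each array a constant multiple of its scanner intensity. The deposited 0 or 1 flags (signal well above background, saturation, outlier) were taken unchanged.

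Each processed intensity was put on the log2 scale, the 75th percentile of the array was subtracted, and outlier spots were dropped. A probe was tested if in at least 1 group all 3 arrays were well above background and if each group had at least 2 values (23907 probes). The test was limma (version 3.58.1, in R 4.3.3, lmFit with eBayes), two-sided, adjusted by Benjamini-Hochberg over these probes with a threshold of 0.05; the script was first tested on simulated data. The number of arrays limits the precision. The Student test of the study's methods was run as an alternative. Where no array of a group detected a probe, the fold was taken against a floor. The floor was the lowest detected signal of each dim array, or the dim spot where that was higher. The mean of the brighter group kept spots not well above background, so that this fold is not a strict lower bound.

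The members and gene lists were chosen with earlier results of these data known. By rule, the text names all 7 members, family genes past the threshold, the 5 largest rises and up to 5 largest falls without overlap (3 qualified), clade and identifier neighbours, and for *VviNAC33* and *VviNAC60* the 3 most correlated family genes. *VviNAC18*, *VviNAC20*, *VviNAC21* and the neighbour runs belong to the neighbours, and *CAB1* was singled out among the leaf markers after its values were seen. Gene names are the study's, and the RefSeq table matched 0 identifiers, so that no sequences or coordinates were used here. Alternatives were other scalings, filters, background correction, the authors' values, session and replicate blocks, other limma settings and leaving out each array.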

Additional observations from a re-analysis of the deposited data

How the results depend on the processing

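*VviNAC26* and *VviNAC11* kept their direction under every alternative run, but their calls did not hold under all. *VviNAC26* was 3.83 without a filter on dim probes, 3.86 with the session block, 3.83 with the methods' t-test after Benjamini-Hochberg and 3.36 with normexp on median signals (adjusted p 0.0840, 0.0551, 0.122 and 0.0594), and *VviNAC11* was 2.60, 2.78, 2.60 and 2.28 (0.0942, 0.0596, 0.143 and 0.0698). Under each of these 4 settings 0 members were called. Except for the t-test, which called 1 probe higher and 1 lower, they called 0 probes at all, with 6314, 6844 and 5188 probes at an unadjusted p under 0.05 without the filter, with the session block and with normexp. Spike-in scaling called 4 members, adding *VviNAC33* at 2.84 and *VviNAC60* at 2.88, and 5 other NAC genes higher, and put 657 probes higher and 389 lower (37.2% lower, against 66.2%). It was chosen after seeing the data, as was normexp on median signals. It used 261 spike-in spots well above background; an earlier version on all 320 gave 2.84 and 2.88, again 4 members and 5 other NAC genes, and 621 probes higher and 364 lower. Median scaling gave 596 higher and 741 lower (55.4% lower). The median difference of all probes, -0.01 in the report, was 0.18 with either spike-in scaling, 0.11 with median scaling and -0.23 with normexp. Under the unadjusted t-test of the methods 3 members passed, *VviNAC60* among them at 2.69 (unadjusted p = 0.0407), with 14 other NAC genes higher and 4 lower and 2373 probes higher and 3432 lower. Trend and robust settings gave 711 probes higher and 1095 lower, and both these settings and array weights called 1 NAC gene lower. With normexp *VviNAC33* was 1.20, *VviNAC60* 0.88 and *VviNAC03* -0.60 (0.77 in the report's scaling), and *VviNAC61* turned to -0.16. The causes were not tested. Normexp on mean signals had been planned but was not run, since the raw signals at hand were medians only.

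Leaving out 1 array gave 3.30 to 4.33 for *VviNAC26*, 2.13 to 3.05 for *VviNAC11*, 2.01 to 3.69 for *VviNAC33*, 2.18 to 3.32 for *VviNAC60*, -1.31 to -0.33 for *VviNAC13*, -0.99 to -0.15 for *VviNAC37* and 0.482 to 1.197 for *VviNAC03*. Members called ran from 0 to 3, other NAC genes from 0 to 5 higher and 0 to 1 lower, and all probes from 0 to 1000 higher and 0 to 1554 lower, each highest value without OXNAC33 2. Where an arm kept 2 arrays their spread was pooled with the other group's.

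Deviations from the group means had r of 0.257, -0.221 and 0.185 between same-numbered arrays of the groups, and from -0.41 to 0.273 between differently numbered ones. Deviations from a group's own mean balance out, so that these r depend on each other. They cannot decide whether same-numbered arrays share more than a number. With the replicate block *VviNAC26* was 3.83 (adjusted p = 0.0980, limma) and *VviNAC11* 2.60 (adjusted p = 0.110, limma), and 0 members, 0 other NAC genes and 0 probes were called, with 5983 probes at an unadjusted p under 0.05.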
